A study of Mus musculus with 30 samples.

Results

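The enzymes that carry long- and medium-chain fatty acids through mitochondrial beta-oxidation were followed in the livers of germfree and conventional mice. The set comprised 10 genes, Cpt2, Slc25a20, Acadvl, Acadl, Acadm, Acads, Hadha, Hadhb, Hadh and Acaa2, and was read through every probe that the platform annotation names for a listed gene. The annotation named 16 such probes, and 15 of them, for 8 of the 10 genes, passed the filter of a detection p-value under 0.05 on at least 7 of 30 arrays. These 15 were part of 10525 probes kept out of 24613 on the array. Liver RNA came from C57BL/6J mice that all ate a high-fat diet for 11 weeks and were killed after 10 h without food. The 14 germfree mice had no gut microbiota and the 16 conventional mice carried one, with no other difference between the groups given in the labels. Each liver was hybridised to 1 single-colour Illumina array, sex and age are not given in the sources used here, and there was no group on another diet or in the fed state. Germfree mice are raised without microbes from birth, so the comparison is of lifelong states and not of a removal of microbes.

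In mitochondrial beta-oxidation, fatty acids enter the organelle as carnitine esters and are shortened from the carboxyl end in repeated rounds of dehydrogenation, hydration, a further dehydrogenation and thiolysis. Each round yields acetyl-CoA, which in the fasted liver feeds ketone body synthesis, and reduced cofactors that feed the respiratory chain. The nuclear receptor PPARA, activated by fatty acids and helped by the coactivator PGC-1alpha, is known to drive many of these genes during fasting. All livers here were therefore sampled in a state in which the pathway is normally in use.

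The DNA upstream of the members was searched for short motifs. The 4 stretches shown were chosen because the results below turn on Cpt2, Acads, Acadm and the trifunctional protein genes. RefSeq promoters on build GRCm38.p6 were available for 9 of the members, Acaa2 not included, and the 250 bases before each start were searched on both strands for 6 motifs. Capitals mark every match to the GC box GGGCGG, the ETS motif CCGGAAGT, the core element of nuclear receptors AGGTCA that core element repeated in one direction with 1 base between, the CCAAT box CCAAT or the E-box CACGTG. Each sequence is written 5′ to 3′ along the strand of its gene, at chr4:107923590-107923839 (minus strand) for Cpt2, chr3:153944644-153944893 (minus strand) for Acadm and chr5:115119347-115119596 (minus strand) for Acads. Hadha and Hadhb lie head to head, so that their windows share 228 bases, and the interval of both windows, chr5:30154981-30155252, is shown along the plus strand, the strand of Hadhb.
Cpt2: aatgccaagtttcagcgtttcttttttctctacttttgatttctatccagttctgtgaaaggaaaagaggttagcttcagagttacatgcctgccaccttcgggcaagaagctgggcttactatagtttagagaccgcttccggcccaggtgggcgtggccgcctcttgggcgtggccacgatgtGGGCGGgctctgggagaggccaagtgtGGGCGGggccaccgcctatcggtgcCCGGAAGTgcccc
Acadm: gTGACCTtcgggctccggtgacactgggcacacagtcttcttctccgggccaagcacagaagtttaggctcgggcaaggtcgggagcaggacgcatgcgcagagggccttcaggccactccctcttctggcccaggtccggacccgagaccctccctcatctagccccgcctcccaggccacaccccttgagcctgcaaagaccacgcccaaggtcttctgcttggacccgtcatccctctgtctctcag
Acads: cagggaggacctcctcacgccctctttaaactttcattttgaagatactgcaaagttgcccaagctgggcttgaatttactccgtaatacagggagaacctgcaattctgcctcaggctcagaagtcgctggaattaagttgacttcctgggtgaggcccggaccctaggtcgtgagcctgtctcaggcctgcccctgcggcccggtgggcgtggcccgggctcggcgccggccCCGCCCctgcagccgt
Hadha to Hadhb: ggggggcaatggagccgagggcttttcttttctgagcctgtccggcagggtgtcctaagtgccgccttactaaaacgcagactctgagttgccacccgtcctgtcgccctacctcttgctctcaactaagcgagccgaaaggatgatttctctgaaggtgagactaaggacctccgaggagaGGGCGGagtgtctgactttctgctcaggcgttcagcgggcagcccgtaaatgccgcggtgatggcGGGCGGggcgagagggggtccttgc
A GC box stood in 7 of the 9 windows, against 32.7% of 32851 mouse promoter windows of the same length. The single box of Hadha lies in the shared bases and is also 1 of the 2 of Hadhb, so these windows are not independent. The core element was found in Acadvl and Acadm (14.0% of all windows) and the ETS motif in Cpt2 and Slc25a20 (2.88% of all windows). A CCAAT box was found in Hadh (33.8% of all windows). None of the 9 held the repeated element (0.0335%) or the E-box (6.02%). These are matches of letters in a short window and no test of a factor's binding.

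The comparison of 14 germfree with 16 conventional livers addresses the RNA of these enzymes in mice with and without a gut microbiota. None of the 15 member probes differed past an adjusted p of 0.05 (limma, Benjamini-Hochberg over all 10525 probes), while 5.73% of all probes did. At an unadjusted p under 0.05 there was 1 member probe, for Cpt2, against 18.1% of all probes. The differences were small. Of the 15 probes 12 were below 0, where germfree livers are lower, against 50.2% of all probes, with a median log2 difference of -0.09 (germfree minus conventional) against -0.001 over all probes. Several of the 15 share a gene, and with 1 probe a gene 5 of 8 lay below 0 with a median of -0.04. The log2 differences ran from -0.25 for a Hadh probe to 0.11 for a Hadhb probe.

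The intervals bound how large a change could have been missed. The 95% interval of the difference lay inside 1.5-fold in either direction for all 15 member probes (93.9% of all probes), inside 1.3-fold for 13 (77.4%) and inside 1.2-fold for 3 (46%). The lowest lower bound was -0.54 on the log2 scale and the highest upper bound 0.29. Under median scaling in place of quantile normalization these bounds were wider, at -0.61 and 0.49. Hadh ILMN_1246005 (-0.61) and Hadhb ILMN_1218179 (-0.59) then reached past 1.5-fold. The 3 probes inside 1.2-fold no longer were, with lower bounds of -0.35 (Acadvl), -0.33 (Acads) and -0.36 (Acaa2 ILMN_2696714). The median width of an interval in the main fit was 0.38 for the members and 0.36 for all probes. A smaller share of the members than of all probes lay inside 1.2-fold. In bulk tissue, fewer hepatocytes and less RNA per hepatocyte cannot be told apart.

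**Figure D1:**
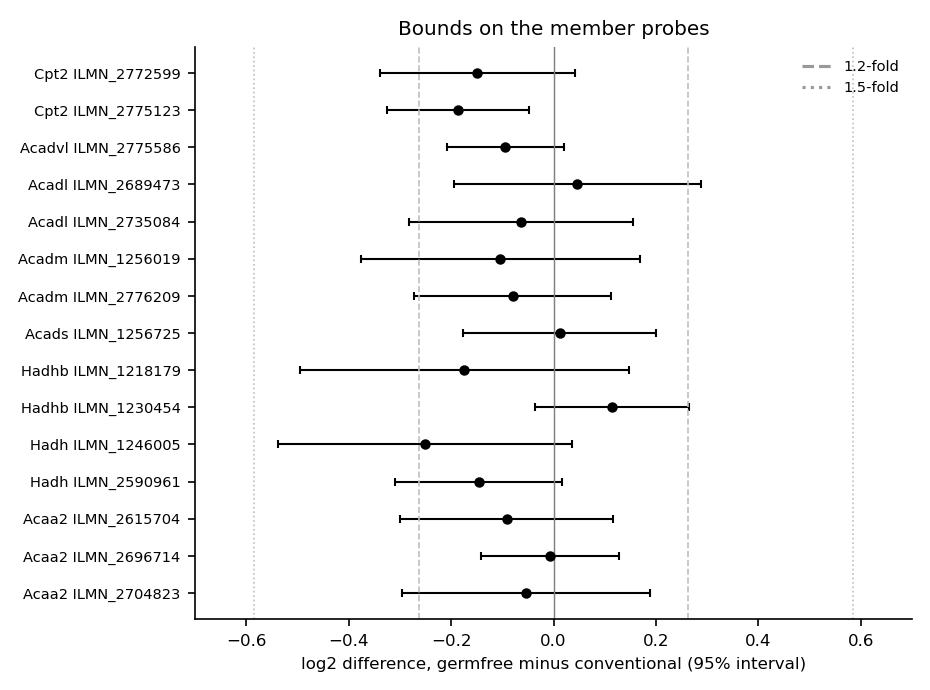
Difference of each member probe between germfree and conventional liver, with the point at the log2 difference (14 against 16 livers) and the bar as its 95% interval from limma; dashed and dotted lines mark 1.2-fold and 1.5-fold. The interval of 1 probe, Cpt2 ILMN_2775123, lies wholly below 0, and all 15 lie between the 1.5-fold lines.

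Cpt2, carnitine palmitoyltransferase 2, turns acylcarnitines back into acyl-CoA on the inner mitochondrial membrane. Its brighter probe, ILMN_2775123, read 11.08, 11.28 and 11.67 (lowest, median and highest log2 signal) in germfree livers and 11.32, 11.49 and 11.80 in conventional livers. The groups overlapped, although 11 of 14 germfree livers lay below the conventional mean and 15 of 16 conventional livers above the germfree mean. The log2 difference was -0.19 with an interval from -0.33 to -0.05 (limma, p = 0.00992, adjusted p = 0.109), which as a percentage runs from -20.2 to -3.26. The second probe, ILMN_2772599, read 9.80, 10.43 and 10.80 in germfree and 10.26, 10.47 and 10.97 in conventional livers. Its difference of -0.15 (interval -0.34 to 0.04, limma adjusted p = 0.435) had the same sign. Both probes followed each other from liver to liver (r = 0.87 for deviations from the group means, 30 livers). With the first principal axis of the deviations from the group means as a covariate, an alternative added after the data were seen, the adjusted p of the brighter probe was 0.0276 (limma). That axis averages 0 in each group and was made from the same residuals, so it leaves the difference as it was. It changes only the residual spread, which was smaller for this probe (interval -0.30 to -0.08). Slc25a20, the carrier that exchanges acylcarnitine for carnitine across the inner membrane, had no named probe and was not analysed here.

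The acyl-CoA dehydrogenases open each round, with Acadvl and Acadl acting on the longer chains, Acadm on medium chains and Acads on short ones. Acadvl read 11.07, 11.48 and 11.65 in germfree and 11.37, 11.53 and 11.71 in conventional livers, and 11 of 14 germfree livers lay below the conventional mean. The difference of -0.09 had the narrowest interval of the set, -0.21 to 0.02 (limma adjusted p = 0.403). The germfree values of this probe were more spread out, with an SD of 0.16 (n = 14) against 0.10 (n = 16). Acadm read 9.56, 10.52 and 10.73 in germfree and 10.15, 10.48 and 10.80 in conventional livers on probe ILMN_2776209, where 1 germfree liver stood far below the others. The medians were nearly the same, and the difference was -0.08 (interval -0.27 to 0.11, limma adjusted p = 0.744). The second Acadm probe, ILMN_1256019, gave -0.10 (interval -0.38 to 0.17).

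Acads read 7.06, 7.36 and 7.66 in germfree and 6.86, 7.30 and 7.96 in conventional livers, so that the conventional livers spanned the wider range. The difference was 0.01 with an interval from -0.18 to 0.20 (limma adjusted p = 0.966). Acadl, on the probe detected on all 30 arrays, ILMN_2689473, read 5.66, 6.48 and 7.46 in germfree and 5.92, 6.48 and 6.94 in conventional livers. Its medians coincided, with a difference of 0.05 (interval -0.19 to 0.29, limma adjusted p = 0.897). The other Acadl probe, ILMN_2735084, was detected on 10 of 30 arrays, 4 germfree and 6 conventional. Its difference of -0.06 (interval -0.28 to 0.16) therefore rests largely on signals near background, where differences are compressed.

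The trifunctional protein, made of alpha subunits from Hadha and beta subunits from Hadhb, carries out the last 3 steps on long chains. Hadha's single probe was detected on 0 of 30 arrays, with raw signals from 29.7 to 77.4, a median of 54.0 and no detection p-value under 0.112. This says that the probe gave no signal above the negative control beads and nothing on whether the gene is expressed. Probes for Alb and Fabp1, abundant liver RNAs, did likewise and were detected on 4 and 0 of 30 arrays. Hadhb had probes of opposite sign. The brighter, ILMN_1230454, read 10.85, 11.15 and 11.61 in germfree and 10.79, 11.03 and 11.36 in conventional livers, and 5 of 14 germfree livers lay below the conventional mean. Its difference was 0.11 (interval -0.04 to 0.26, limma adjusted p = 0.453). The other probe, ILMN_1218179, read 5.98, 7.62 and 8.28 in germfree and 7.26, 7.70 and 8.16 in conventional livers. The germfree SD of 0.61 (n = 14) was 2.21 times the conventional 0.28 (n = 16) on that probe, the highest ratio of the 15, and its difference was -0.17 (interval -0.49 to 0.15, limma adjusted p = 0.635). A direction for Hadhb cannot be given.

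Hadh, the medium- and short-chain 3-hydroxyacyl-CoA dehydrogenase, had the lowest estimate and the lowest bound of the set. Probe ILMN_1246005 read 6.18, 7.19 and 7.72 in germfree and 6.85, 7.44 and 7.90 in conventional livers, with 8 of 14 germfree livers below the conventional mean. The difference was -0.25 and its interval, -0.54 to 0.04, is the second widest (limma p = 0.0847, adjusted p = 0.366). Its other probe, ILMN_2590961, detected on 4 germfree and 8 conventional arrays, gave -0.15 (interval -0.31 to 0.02, limma adjusted p = 0.352), with 12 of 14 germfree livers below the conventional mean.

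Acaa2, the thiolase that releases acetyl-CoA in the mitochondrial matrix, was measured by 3 probes. The brightest, ILMN_2696714, read 13.07, 13.48 and 13.65 in germfree and 13.23, 13.41 and 13.84 in conventional livers. Its difference was -0.01 (interval -0.14 to 0.13, limma adjusted p = 0.975). In percent that interval runs from -9.36 to 9.33. In the main fit Acaa2 on this probe was one of the 3 readings bounded inside 1.2-fold, beside Acadvl and Acads. The other Acaa2 probes gave -0.09 (ILMN_2615704, interval -0.30 to 0.12) and -0.05 (ILMN_2704823, interval -0.30 to 0.19).

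**Figure D2:**
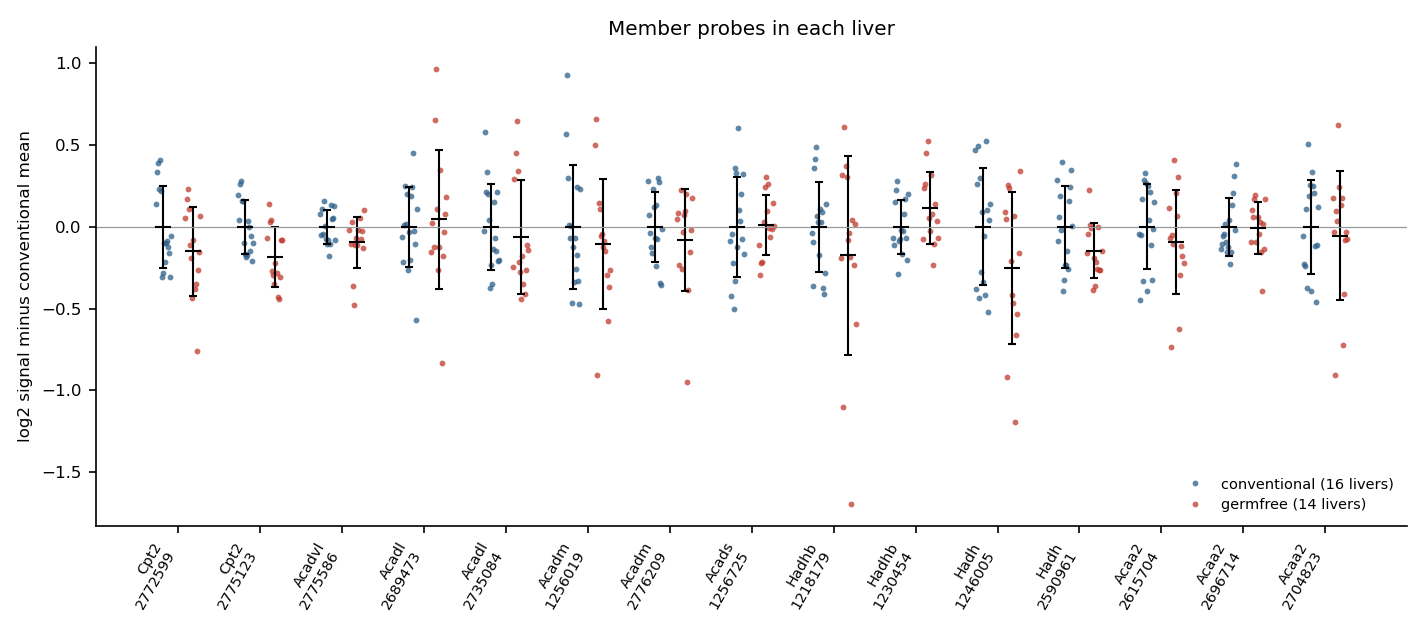
Log2 signal of the 15 member probes in each liver, set to 0 at the conventional mean of the probe; points are livers (16 conventional, 14 germfree) and black bars are the group mean ± SD. The groups overlap on every probe, and germfree liver 10 is the lowest germfree point of Acadm ILMN_2776209, Acadl ILMN_2689473, Hadh ILMN_1246005 and both Hadhb probes.

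The lowest readings were spread over several livers of each group, most often germfree liver 10. How often 1 liver would hold so many if the probes were unrelated was not tested. Germfree liver 10 had the lowest germfree value of 5 member probes, for Acadm, Acadl, Hadh and both probes of Hadhb. Its deviation from the germfree mean was -1.52 on the Hadhb probe ILMN_1218179 and -0.94 on Hadh, in log2 units. On Acadvl it stood above the germfree mean. Germfree livers 3 and 11 each had the lowest germfree value of 3 probes. These include Acaa2 ILMN_2615704 and ILMN_2704823 for liver 3 and both Cpt2 probes for liver 11, so they repeat a gene. Conventional livers 7 and 14 each had the lowest conventional value of 3, and conventional liver 15 that of 4. No member probe passed the threshold in any of the 30 fits that left out 1 liver, and the median difference of the members stayed between -0.11 and -0.05.

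Whether the enzymes vary together from animal to animal was read from deviations around the group means in all 30 livers, with the brightest probe of each gene. The strongest positive pairs joined Hadh, Acadl, Acadm and Hadhb, while Cpt2 and Acads ran against each other. Of 28 pairs 6 passed (100000 permutations within groups, two-sided, Benjamini-Hochberg over the 28), 4 positive and 2 negative, and by rank 5 did. An r of 0.5 or more was seen in 5 of the 28, against 2.19% of 30721041 pairs of named genes, and an r of -0.5 or less in 2, against 1.85%. The median r was 0.14 for the 28 pairs and 0.0014 for all.

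Acadm with Hadh had r = 0.66 (permutation p = 0.00017, adjusted p = 0.00308) and a rank correlation of 0.63 (permutation p = 0.00034, adjusted p = 0.00457). Without the 2 livers farthest from the median of Acadm r was 0.59, and it was 0.51 in conventional and 0.75 in germfree livers. Acadl with Hadh had r = 0.65 (permutation p = 0.00023, adjusted p = 0.00308) and a rank correlation of 0.62 (permutation p = 0.00049, adjusted p = 0.00457), and r was 0.52 without the 2 livers farthest from the median of Acadl. Neither relation held over all probes: the other Hadh probe, near background, gave -0.08 with Acadm and 0.06 with Acadl, and Hadh ILMN_1246005 gave 0.45 with the other Acadm probe and 0.17 with the other Acadl probe. Acadl with Hadhb had r = 0.60 (permutation p = 0.00095, adjusted p = 0.00665; rank correlation 0.49, permutation p = 0.00783, adjusted p = 0.0438). That relation rests in part on 2 livers, without which r was 0.38 and no longer passed (adjusted p = 0.195). Hadhb with Acaa2 had r = 0.53 (permutation p = 0.00236, adjusted p = 0.0132; rank correlation 0.55, permutation p = 0.00217, adjusted p = 0.0152), and 0.46 without the 2 farthest livers (adjusted p = 0.0815). Acadvl with Acadl had r = -0.56 (permutation p = 0.0045, adjusted p = 0.021), but the rank correlation of -0.28 did not pass (permutation p = 0.143, adjusted p = 0.298). Its r was -0.13 in conventional and -0.76 in germfree livers, and -0.21 without the 2 farthest, so it rests on those livers, and it was -0.27 with the other Acadl probe.

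Cpt2 and Acads were opposed in both groups. Their r was -0.60 (permutation p = 0.00033, adjusted p = 0.00308) with a rank correlation of -0.61 (permutation p = 0.00049, adjusted p = 0.00457). It was -0.63 in conventional and -0.63 in germfree livers, -0.56 without the 2 farthest livers and -0.69 with the other Cpt2 probe. Both genes also followed that principal axis, which carried 15.2% of the variance of all probes and correlated at 0.317 with the log2 mean raw signal of the array. Acads correlated with that axis at 0.82 and the Cpt2 probes at -0.83 and -0.72. The axis followed replicate number in both groups. It was negative in conventional livers 1 to 6 and germfree livers 1 to 5, and positive in germfree livers 6 to 14. Conventional livers 7 to 16 were positive except 9, 14 and 16. The permutations shuffled livers freely within a group, so the permutation p-values of the pairs do not account for that order. With the axis as a covariate the r of Cpt2 and Acads was -0.03 (adjusted p = 0.89), and Hadhb with Acaa2, at 0.41, no longer passed either (adjusted p = 0.0857), while the other 4 pairs did. Under median scaling in place of quantile normalization the sign for Cpt2 and Acads turned, to 0.71. Under that scaling all 28 pairs were positive and passed.

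**Figure D3:**
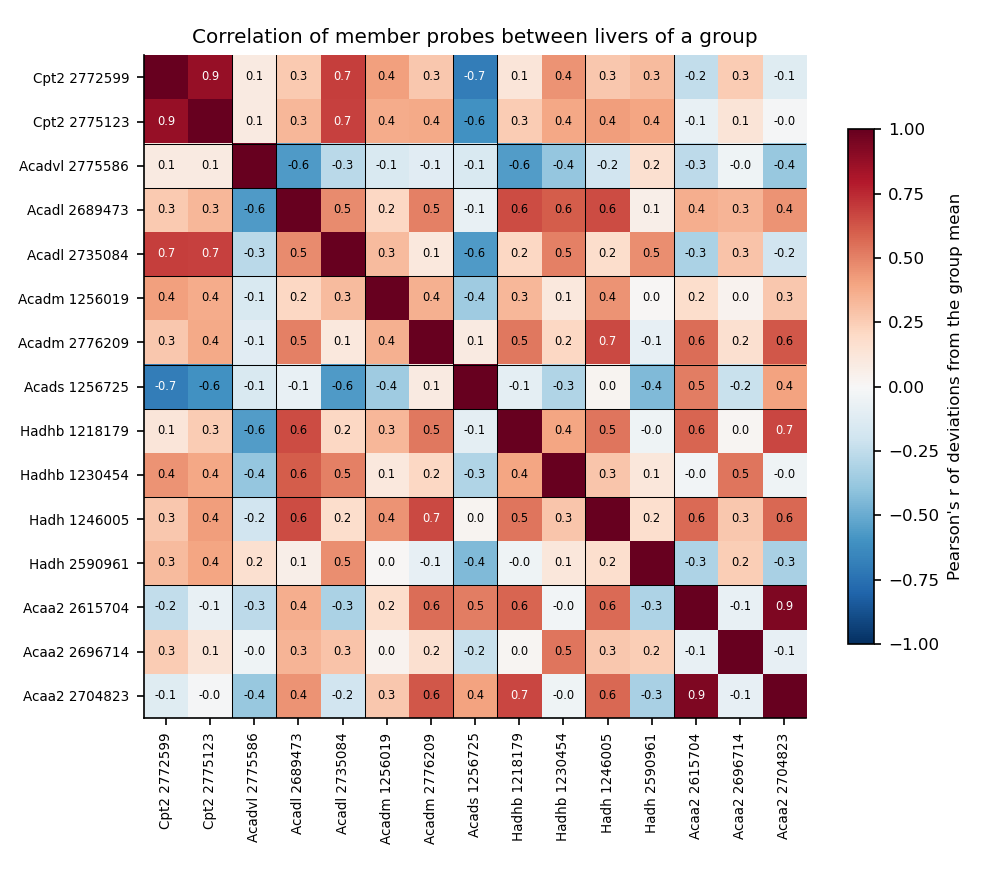
Pearson correlation of the 15 member probes over 30 livers, computed on log2 deviations from the group mean, with red for positive and blue for negative values and r printed in each cell. Both Cpt2 probes are red with each other and blue with Acads, and Acaa2 ILMN_2696714 is pale against the other Acaa2 probes.

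Probes of one gene did not always move together, which bounds what any single probe says. Of 8 pairs of probes within a gene 3 passed over the 30 livers (permutation, Benjamini-Hochberg over the 8), for Cpt2 at r = 0.87, for Acaa2 ILMN_2615704 with ILMN_2704823 at 0.94 and for Acadl at 0.47 (adjusted p = 0.0404). The median r was 0.38 within genes and 0.17 over the 97 pairs of probes of different genes. Acaa2 ILMN_2696714 had r = -0.08 with each of the other Acaa2 probes, and the Hadhb probes had r = 0.39 (adjusted p = 0.0976). The relation of Hadhb to Acaa2 depended on the probes chosen. Hadhb ILMN_1230454 followed Acaa2 ILMN_2696714 (0.53) and neither of the others (-0.03 and -0.04), while Hadhb ILMN_1218179 followed ILMN_2615704 and ILMN_2704823 (0.58 and 0.67) and not ILMN_2696714 (0.02). Whether the probes read different transcripts was not tested.

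The enzymes were next set against genes that feed, drive or accompany the pathway, of which 8 were measured (Ppara, Ppargc1a, Etfdh, Etfa, Ehhadh, Pdk4, Fgf21 and Cyp4a14). Cpt1a, the gate of the carnitine shuttle, was removed by the filter, and Etfb had no named probe, so these were not analysed here. Etfdh and Etfa, which pass the electrons of the acyl-CoA dehydrogenases to ubiquinone, had log2 differences of -0.13 ± 0.10 (SE) and -0.04 ± 0.06, with adjusted p = 0.535 and 0.825 by limma. Ppara and the peroxisomal bifunctional enzyme Ehhadh had differences of 0.29 ± 0.16 and 0.27 ± 0.15 (limma adjusted p = 0.363 and 0.368). Fgf21, a fasting hormone of the liver, had a difference of 0.26 ± 0.30, Pdk4, which restrains pyruvate oxidation, 0.21 ± 0.35, and the omega-hydroxylase Cyp4a14 0.56 ± 0.24 (limma adjusted p = 0.735, 0.826 and 0.189).

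Across livers, several of the enzymes followed Etfdh, Etfa or Ehhadh. Hadh with Etfdh had r = 0.83 (permutation p = 1e-05, the smallest these permutations can give, adjusted p = 0.00032) and a rank correlation of 0.77 (permutation p = 1e-05, adjusted p = 0.00064), with r = 0.75 without the 2 farthest livers, 0.85 in conventional and 0.81 in germfree livers. Of 64 pairs of a member and one of these genes 10 passed, 9 positive and 1 negative, in a family of tests added after the data were seen. The 9 positive pairs had r above 0.5, as had 2.19% of all pairs of named genes. What share of all gene pairs would pass this test was not computed. These permutations too ignore the order by replicate number, and under median scaling 38 of the 64 passed. Acadl followed Etfdh at 0.73 and Acadvl followed Etfa at 0.64. Hadhb followed Ehhadh at 0.74 (permutation p = 2e-05, adjusted p = 0.00032; rank correlation 0.67, permutation p = 0.00021, adjusted p = 0.00336), and 0.66 without the 2 farthest livers. Cpt2 followed Ehhadh at 0.72 and Acads was opposed to it at -0.49, but with the main axis as a covariate these were 0.44 and 0.19 and neither passed (adjusted p = 0.0743 and 0.443). Acadl with Ehhadh (0.65), Acadm with Etfdh (0.58), Acadl with Cyp4a14 (0.52) and Hadhb with Cyp4a14 (0.51) made up the other passing pairs. By rank these did not pass (permutation adjusted p = 0.0881, 0.0752, 0.0970 and 0.0881). Without germfree liver 10 the last 3 of these were 0.38, 0.42 and 0.44 and did not pass (adjusted p = 0.227, 0.0975 and 0.0975). Without the 2 livers farthest from the median 4 pairs passed, those of Hadh and Acadl with Etfdh and of Cpt2 and Hadhb with Ehhadh. No pair with Ppara or Ppargc1a passed.

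**Figure D4:**
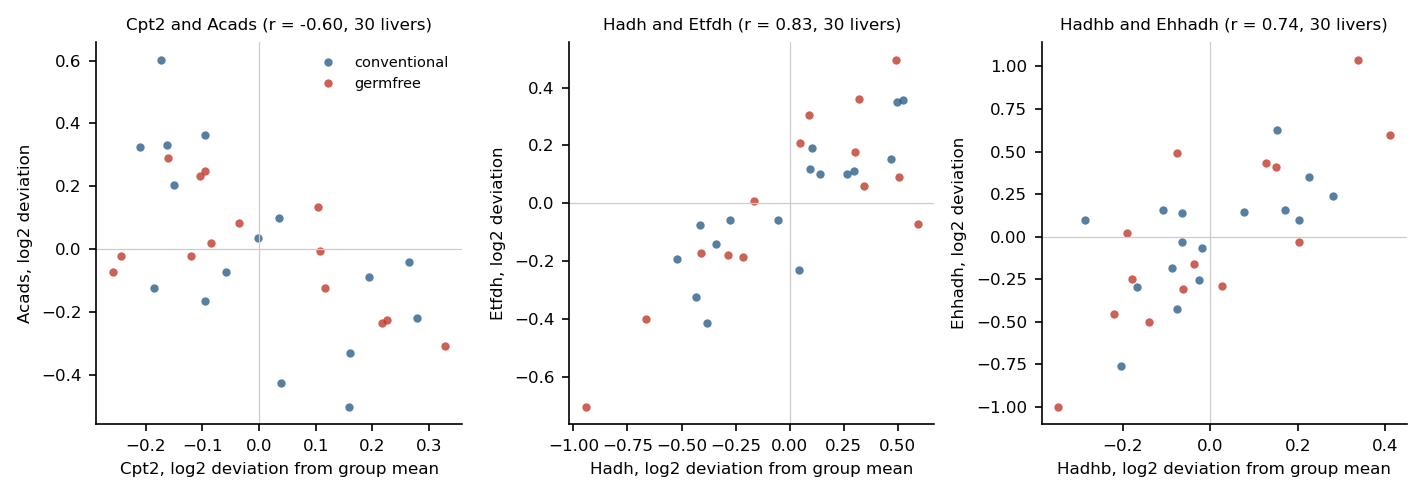
Log2 deviations from the group mean in 30 livers (blue conventional, red germfree) for Cpt2 and Acads (r = -0.60), Hadh and Etfdh (r = 0.83) and Hadhb and Ehhadh (r = 0.74). Both groups run in the same direction in each panel, and the lowest Hadh and Etfdh values belong to 1 germfree liver.

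Among 7831 other named genes, those most like the mean deviation of the members over the 30 livers were Ppp2r5a (r = 0.84), a regulatory subunit of protein phosphatase 2A, and Bbox1 (0.80), the last enzyme of carnitine synthesis. Next came Abcd3 (0.77), a peroxisomal importer of fatty acids, Ugt2b34 (0.75), Dram2 (0.74), Cryz (0.74), Timm8a1 (0.73) and Akr1c12 (0.73). They were chosen for this likeness, so the values are a description. None of the 8 differed between the groups past the threshold (limma), with adjusted p from 0.0723 for Timm8a1 to 0.971 for Abcd3.

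The wider pathway was read from 7 lists of 96 genes, of which 71 were tested and 3 were higher and 2 lower in germfree liver, against 3.28% higher and 2.45% lower of all probes. None of 19 other mitochondrial beta-oxidation genes passed, and their median log2 difference was -0.04. None of 15 genes of the tricarboxylic acid cycle passed either (median 0.03). Peroxisomal beta-oxidation held 1 lower gene among 14 (median -0.07), the thiolase Acaa1b, with a difference of -0.48 ± 0.08 (SE; limma adjusted p = 0.000147). Of the ketogenesis list 2 genes were tested, and Acat1, the mitochondrial acetoacetyl-CoA thiolase, was lower by the test (-0.39 ± 0.10, limma adjusted p = 0.0174) while Bdh1, 3-hydroxybutyrate dehydrogenase, did not pass (0.02 ± 0.10). Under median scaling neither Acaa1b nor Acat1 passed (-0.48 and -0.38, limma adjusted p = 0.195 and 0.486).

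Of 5 genes of fatty acid uptake and activation Acsl4, an acyl-CoA synthetase with a preference for arachidonate, was higher (0.66 ± 0.13, limma adjusted p = 0.00104), and its other probes gave 0.08, 0.47 and 0.47. Of 8 regulators 2 were higher, while the acetyl-CoA carboxylase gene Acaca, chosen after its values were seen, had a difference of -0.35 and did not pass (limma adjusted p = 0.0868). The other Acaca probe gave -0.09 (limma adjusted p = 0.631). Ppargc1a, which encodes PGC-1alpha, had a difference of 0.71 ± 0.18 (limma adjusted p = 0.0137) and the deacetylase Sirt1 one of 0.32 ± 0.09 (limma adjusted p = 0.0285). Both were detected in 14 of 14 germfree and 14 of 16 conventional livers, so the sizes are approximate. Without background correction the differences were 0.37 and 0.14, and on the authors' normalized values 0.40 and 0.16, all past the threshold. In a fit blocked by replicate number, on 28 arrays, Ppargc1a did not pass (0.64, adjusted p = 0.0614 by limma), and without the block on those arrays it did (adjusted p = 0.0381). Under median scaling Ppargc1a did not pass either (0.73, adjusted p = 0.0522 by limma). Sirt1 no longer passed when germfree liver 8, 11 or 12 was left out (adjusted p = 0.0527, 0.0544 and 0.0520 by limma), with no filter (0.0597) or with median scaling over all probes or over those detected on every array (0.346 and 0.112). The call was also lost for Ppargc1a and Acat1 when the arrays with a mean signal under 160 were left out (0.60 and -0.35, adjusted p = 0.0601 and 0.0552 by limma), which left 3 of the 5 genes past the threshold. None of 9 fasting and PPARA response genes passed on the probe used (median 0.24). Cyp4a10, a further omega-hydroxylase that was named here after its values were seen, came closest at 0.49 (limma adjusted p = 0.0502), and its other probe passed at 0.74 (limma adjusted p = 0.0160). Of the 9 genes 2 were below 0, Cidec (-0.56, limma adjusted p = 0.231) and Plin2 (-0.18, limma adjusted p = 0.616), also named after their values were seen.

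**Figure D5:**
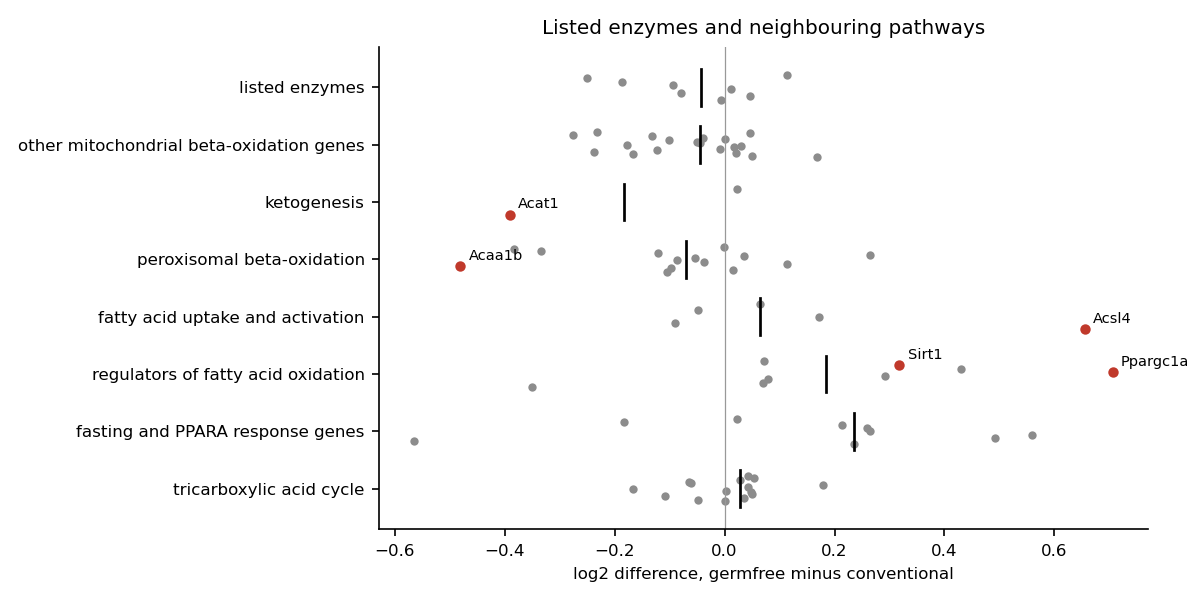
Log2 difference, germfree minus conventional, of each tested gene (1 probe a gene) in the listed enzymes and 7 related lists; each point is a gene, the black line is the median of the list, and red points passed an adjusted p of 0.05 (limma). The listed enzymes lie between -0.25 and 0.11 with none past the threshold, and 5 named genes of other lists are past it.

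Mean raw signal overlapped between the groups. It ran from 85.5 to 359 in conventional and from 133 to 359 in germfree livers, and 33.7% to 41.7% and 36.6% to 41.7% of probes were detected. Hepatocyte markers Apoa1, Ttr, Ass1 and Serpina1a were detected on all 30 arrays and 0 of 4 passed (limma, log2 differences 0.01 to 0.13). Their summed normalized signal was 69663 to 95711 in germfree and 70815 to 89516 in conventional livers. Some markers of other cell types did differ. Lower were Clec4f and C1qa of 6 Kupffer cell genes, Sox9 of 2 bile duct genes and Alas2 of 2 erythroid genes. Krt7, the other bile duct gene, had the opposite sign without passing (0.07, limma adjusted p = 0.790). Its mean log2 signal was 5.01 in germfree and 4.94 in conventional livers, against 8.03 and 8.86 for Sox9. The bile duct sum is therefore mostly Sox9. The summed signal of the Kupffer cell genes ran from 552 to 1033 in germfree and from 675 to 1373 in conventional livers, that of the bile duct genes from 176 to 444 and from 333 to 927, and that of the erythroid genes from 990 to 4125 and from 2190 to 5253. Plin4 of 2 adipocyte genes was lower. Stab2 of 5 endothelial, Reln of 3 stellate and Cela2a of 3 acinar genes were higher, but other members of those lists had the opposite sign without passing, such as Lyve1 (-0.49) and Pecam1 (-0.18), Lrat (-0.08) and Amy2a5 (-0.10). The part of these cells in the small differences of the enzymes was not tested.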

How the data were processed

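Non-normalized bead intensity and, per probe and array, a detection p-value against negative control beads were deposited in 1 table, per the file headers. A second deposited table held quantile-normalized intensity of the same arrays, per the file headers, and served as an alternative. The submitters' processing notes name GenomeStudio with no version. A further 33 arrays of the signal table had no sample in the labels and were not used.

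Signals of the 30 arrays went through neqc (limma 3.58.1, R 4.3.3), which corrects the background by normexp using the detection p-values, adds an offset of 16, normalizes by quantiles and takes log2. Each kept probe was fitted with limma (lmFit, eBayes, two-sided), with 95% intervals and Benjamini-Hochberg adjustment over 10525 probes. Of 24613 probes 20984 had 1 gene symbol, 1 had several and 3628 are unnamed here. For a gene with several probes, lists and pairs used the brightest kept probe. Correlations used deviations from group means (Python 3.11.15, numpy 2.4.6), and figures matplotlib 3.10.9.

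Genes are named by this rule: every member probe, the up to 6 genes of each list past the threshold with the smallest adjusted p, 12 fixed genes, and the 8 genes most like the members. Not every fixed gene is reported here. The members, lists and tests were chosen with earlier results of these data known. Each array is taken as 1 animal, and p-values measure the spread between these livers. The number of arrays limits the precision. The procedure was tested on simulated data. Replicate numbers 1 to 14 occur in both groups. The main fit did not treat same-numbered livers as pairs, and a fit blocked by number served as an alternative. Same-numbered livers did not deviate together in every pair, which does not exclude a shared block. The main axis within groups did follow replicate number in both groups, and the labels do not say what the numbers stand for. Alternatives changed the background correction, the normalization, the filter, the probe rule, array weights, the variance model and covariates, or left out arrays.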

Additional observations from a re-analysis of the deposited data

How the results depend on the processing

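No member probe passed an adjusted p of 0.05 in limma under 15 of 16 other settings or without any 1 liver (0 in each of 30 fits). The exception was a covariate for the main axis within groups, added after the data were seen, with 1 member probe, Cpt2 ILMN_2775123 (-0.19, adjusted p = 0.0276). That axis cannot move the difference, only its residual spread. With the replicate block, on 28 arrays, its adjusted p was 0.0667, against 0.0908 on the same arrays without it. Correlations of same-numbered livers ran from -0.17 to 0.39, over 0.1 in 7 of 14 pairs, and 2 of 14 germfree livers correlated best with their own number. Among called genes of the wider lists the block ended the call of Ppargc1a (adjusted p = 0.0614). It passed 0 member probes and turned Acaa2 ILMN_2696714 to 0.020, as did the 28 arrays without the block (0.020). Without arrays of mean signal under 160, Acaa2 ILMN_2704823 turned to 0.031. Without 1 liver, the difference ran from -0.022 to 0.023 for Acaa2 ILMN_2696714 (sign turned in 7 fits), from -0.11 to 0.011 for Acaa2 ILMN_2704823 (1 fit), from -0.024 to 0.11 for Acadl ILMN_2689473 (1 fit) and from -0.021 to 0.052 for Acads (7 fits), so no direction can be given for these probes. Under median scaling 68 of all probes passed (39 higher, 29 lower), the lowest member adjusted p was 0.988, and 1 gene of the wider lists passed. That gene was Acsl4 (limma adjusted p = 0.0426), and the calls of Acaa1b, Acat1, Ppargc1a and Sirt1 were lost. Member intervals then reached -0.61 and 0.49, past 1.5-fold for Hadh ILMN_1246005 and Hadhb ILMN_1218179. The wider lists had 3 without the arrays of low signal and 8 with the main axis as a covariate. The pairs of members that passed numbered 28 under median scaling, 10 with cyclic loess and 10 with median scaling over probes detected on all arrays. Pairs with the fixed genes numbered 38 under median scaling and 4 without the 2 livers farthest on the x axis. The cause of these changes was not tested. Signals near background limit Acadl ILMN_2735084 and Hadh ILMN_2590961.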
